A study of Mus musculus with 24 samples.

Results

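This section describes 233 stretches of the mouse genome that carried H3K36me3 in N1E115 cells but lay outside every annotated protein-coding and long non-coding RNA (lncRNA) gene. N1E115 is a mouse neuroblastoma cell line, and the labels describe the cells used as NOS1-positive neuroblasts. All cells of the series were of this line and were grown for 3 days at 20% oxygen (normoxia, 2 libraries per mark) or at 4% oxygen (hypoxia, 2 libraries per mark), with no other agent named. ChIP-seq, the sequencing of DNA pulled down with antibodies to a histone mark, covered 5 marks in 20 libraries, and 4 input samples were not used here. No label ties the 2 libraries of a group to separate cultures, so p-values measure only the spread between these libraries, which may be technical, and a single line limits the results to these cells.

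The regions were chosen from the deposited H3K36me3 islands, the broad stretches that the authors' caller reported for each library. Islands of the 4 H3K36me3 libraries on chromosomes 1 to 19 of mm10 were merged into 18533 regions, of which 10507 held an island in all 4 libraries. Of the 10163 of these that were shorter than 100 kb, 9930 overlapped a gene and 233 did not. The presence of an island in every library was therefore fixed by the choice of regions and is not a result. The 233 regions were 600 to 89400 bp long, with a median of 8600 bp, against a median of 22000 bp for the gene-overlapping regions. No region outside genes with an island in all 4 libraries reached 100 kb. Just outside the choice lay 121 intergenic regions with an island in 3 of the 4 libraries, with a median length of 5000 bp, and 315 with an island in 1 library, with a median of 2600 bp.

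H3K36me3 is laid down by the methyltransferase SETD2, which travels with elongating RNA polymerase II, so the mark is known for covering the bodies of transcribed genes. H3K4me3 marks active transcription start sites, H3K27ac active promoters and enhancers, and H3K4me1 mostly enhancers. H3K27me3 is placed by Polycomb complexes and is usually found apart from H3K36me3.

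Of the regions outside genes, 6 held microRNA records, and their mature sequences show which small RNAs the intergenic H3K36me3 spanned. MicroRNAs pair with their targets mainly through the seed, bases 2 to 8, printed here in capitals. The sequences are from RefSeq (GRCm38.p6), 5′ to 3′. The region at chr13:48530401-48545600 held Mirlet7a-1, Mirlet7d and Mirlet7f-1, whose 5′ arms share the seed GAGGUAG of the let-7 family.
let-7a-5p: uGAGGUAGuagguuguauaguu
let-7d-5p: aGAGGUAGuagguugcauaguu
let-7f-5p: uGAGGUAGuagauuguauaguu
The region at chr1:23257801-23295600 held Mir30a and Mir30c-2, which share the seed GUAAACA of the miR-30 family. Mir30b and Mir30d lay in a different region of the set, at chr15:68320401-68362200.
miR-30a-5p: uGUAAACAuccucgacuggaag
miR-30c-5p: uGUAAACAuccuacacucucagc
The region at chr9:122666801-122694400 held Mir138-1, a microRNA known for its expression in the brain.
miR-138-5p: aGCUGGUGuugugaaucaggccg

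The promoter of Phox2a is shown because a region of the set lay 1512 bp before this gene's annotated 5′ end, and because H3K4me3 covered all 250 printed bases in all 4 H3K4me3 libraries. Phox2a encodes a homeodomain transcription factor that specifies noradrenergic neurons. The 250 bases before its start are at chr7:101818063-101818312 on the plus strand (RefSeq, GRCm38.p6). Capitals mark GGGCGG on either strand, the GC box.
Phox2a promoter: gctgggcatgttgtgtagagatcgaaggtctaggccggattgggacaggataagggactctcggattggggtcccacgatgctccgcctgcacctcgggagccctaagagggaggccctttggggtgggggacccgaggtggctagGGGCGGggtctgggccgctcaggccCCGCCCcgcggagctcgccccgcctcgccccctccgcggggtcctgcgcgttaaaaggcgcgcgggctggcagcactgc
GGGCGG occurred 2 times in this window, and 32.7% of the 32851 RefSeq promoter windows of the same length hold it on either strand. The motif ACGTG, the core of the hypoxia response element, did not occur in these letters on either strand, and 16.6% of all windows hold it.

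The 4 H3K36me3 libraries held between 13093413 and 24495349 reads in islands on chromosomes 1 to 19. Libraries without the suffix "rep" in their titles are called set 1 and those with it set 2. All set 2 libraries shared a flow cell, per the file headers, while in set 1 the 20% and the 4% H3K36me3 library came from different flow cells, so that oxygen and flow cell cannot be told apart within set 1. The libraries carried the chromatin of a noradrenergic neuroblast. H3K36me3 covered at least 25% of the body of 20 of 28 noradrenergic neuroblastoma genes and 17 of 24 neuronal genes, against 1 of 9 glial, 1 of 10 immune, 2 of 8 endothelial and 0 of 8 liver and muscle genes.

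The regions were first placed beside the genes next to them. The nearest gene was protein-coding for 141 regions and a lncRNA gene for 92, at a median distance of 22174 bp. It lay within 5 kb of 57 regions, between 5 and 50 kb from 92, and farther than 50 kb from 84. By the strand of the nearest gene, 104 regions lay before its 5′ end, 88 lay past its 3′ end, and for 41 no strand was found. A further gene record of another type, mostly a pseudogene (48 regions), lay inside 58 of the regions, and 175 overlapped no gene record at all.

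The genes beside the regions were themselves often without the mark. H3K36me3 covered at least 25% of the nearest gene, averaged over the 4 libraries, for 79 regions, whereas the nearest gene had no H3K36me3 in any library for 124. The same shares over all genes were not set beside these counts, which are a description only. Regions before the 5′ end of a gene covered to at least 25% numbered 31 and lay close to it, at a median of 1512 bp. Regions past the 3′ end of such a gene numbered 30 and lay at a median of 17997.5 bp. For 28 of those 30 the next gene-overlapping H3K36me3 region was the one over that gene, at a median distance of 17800 bp. Most of the 9 neighbouring regions past Zfp330, described below, are among these 30. The 28 and the medians on the 3′ side therefore count that locus several times.

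**Figure D1:**
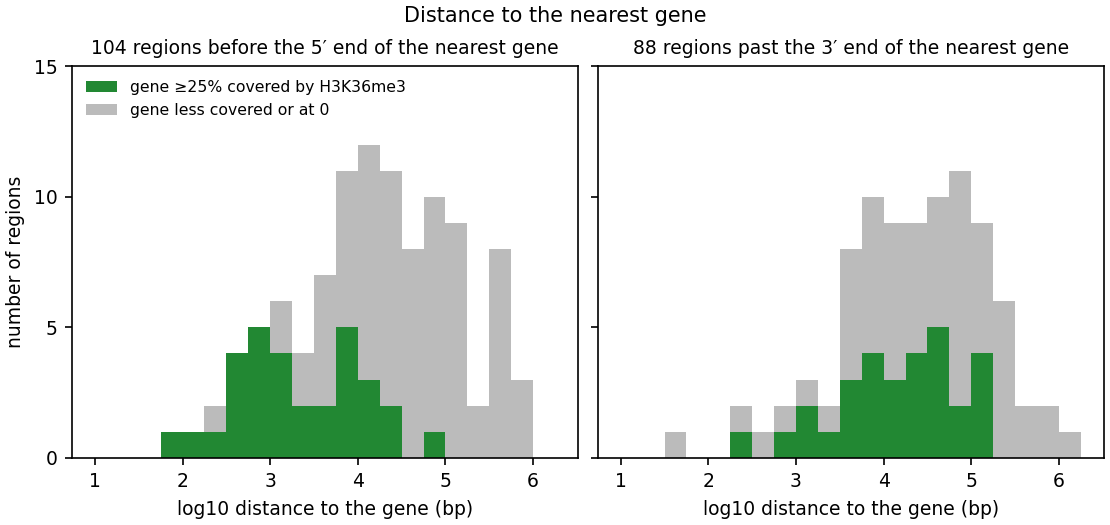
Histograms of the distance from each region to its nearest gene (log10 of bp, horizontal axis) against the number of regions, for the 104 regions before the 5′ end and the 88 past the 3′ end. Green marks regions whose nearest gene was itself covered to at least 25% by H3K36me3, which on the 5′ side are mostly at short distances and on the 3′ side are spread over longer ones.

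Regions just before a gene carried a promoter mark. Of the 29 regions within 5 kb of a 5′ end, 25 faced a gene start with H3K4me3 within 1000 bp of it in all 4 libraries, and in 20 of these the H3K4me3 also reached into the region in all 4. Their genes had GGGCGG before the start in 18 of 25 promoters and ACGTG in 5 of 25, a description only. The region 1512 bp before Phox2a, at chr7:101807601-101816800, had 1.82 and 1.91 normalised reads per kb at 20% oxygen (sets 1 and 2) and 2.57 and 2.69 at 4%. A normalised read density is the number of reads per kb of the library's own islands in the region, per 1000000 of its island reads on chromosomes 1 to 19. Both 4% libraries were above both 20% libraries here, and H3K4me3 and H3K27ac lay inside the region in all 4 libraries of each mark.

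The region 14236 bp before Fbxl7, an F-box protein gene, was 49400 bp long (chr15:26909801-26959200), with densities of 3.88 and 3.45 at 20% and 4.59 and 3.93 at 4%. Of Fbxl7 itself, 46.5% and 24.5% was covered at 20% oxygen (sets 1 and 2) and 0% in both 4% libraries. The region 13637 bp from Bnip3l, which encodes a mitophagy receptor induced by hypoxia, was at 1.55 and 1.97 at 20% and at 1.95 and 2.22 at 4%, with overlapping groups. Its gene was covered to 96.1%. Of the 228 genes in 11 lists of hypoxia, neuronal and other genes, Bnip3l and Phox2a were the 2 that were nearest to a region of the set.

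Past 3′ ends, a few stretches of H3K36me3 came as rows of separate regions. With gaps of up to 50 kb joined, 95 of the 233 regions fell into 35 chains and 138 stood alone, giving 173 separate units, so neighbouring regions are not independent. The chain with the most members, singled out for its size, held 9 regions between chr8:82566001 and chr8:82754800, all past the 3′ end of Zfp330, a zinc-finger protein gene that was covered to 96.7%. The first of its regions began 8817 bp past that end, and the farthest began 170817 bp past it and was nearer to Il15. The region nearest to Zfp330 (chr8:82727001-82754800, over the pseudogene Gm9655) was the densest, with 5.24 and 4.52 at 20% and 6.04 and 5.43 at 4%. It was also the only one of the 9 with H3K4me3 or H3K27ac inside in any library. The 35200-bp region that followed (chr8:82677601-82712800), beyond a short one, had 3.45 and 3.33 at 20% and 4.52 and 4.49 at 4%. The farthest region was the least dense, with 1.96 and 1.76 at 20% and 1.99 and 2.03 at 4%. In each of the 9 regions both 4% libraries lay above both 20% libraries.

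**Figure D2:**
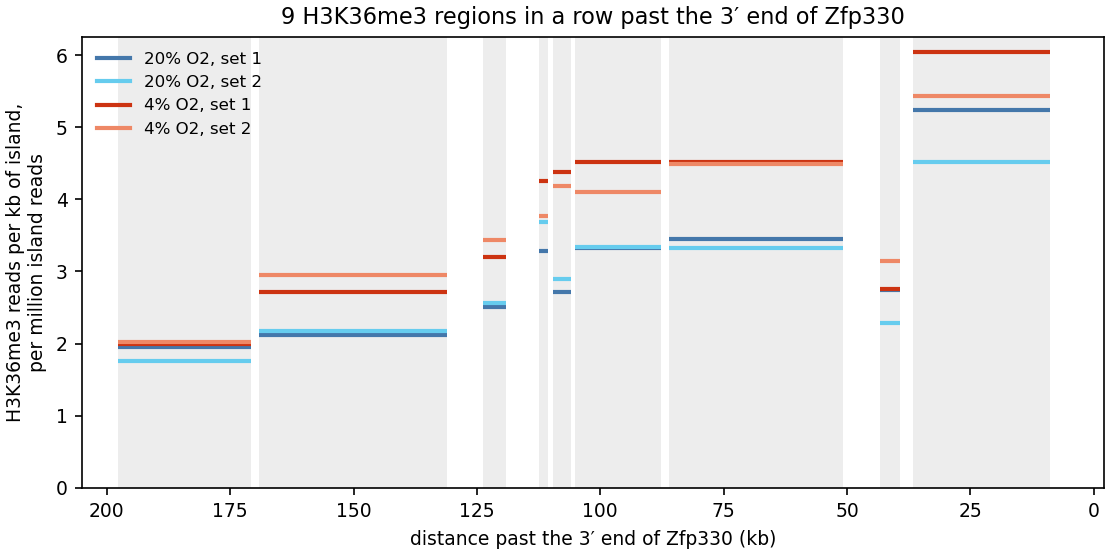
Normalised H3K36me3 read density (vertical axis) in the 9 regions past the 3′ end of Zfp330, by distance from that end in kb (horizontal axis, the gene is to the right). Each coloured line is 1 library over 1 region and grey bands are the regions. The 4% libraries lie above the 20% libraries in all 9 neighbouring regions, a pattern found in 28.1% of all 10507 regions. The density is highest next to the gene.

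Other regions past a 3′ end lay beside genes with and without the mark. The region 17284 bp past Rian, a maternally expressed imprinted lncRNA that hosts small nucleolar RNAs, was at chr12:109679001-109702400 and held Mir882 and 8 small nucleolar RNA records. Its densities were 1.94 and 2.25 at 20% and 2.19 and 2.56 at 4%, with overlapping groups, and it held no H3K4me3 in any library. The region 4221 bp past Ect2, which encodes an exchange factor needed for cell division, was at 2.21 and 2.34 at 20% and at 1.76 and 1.85 at 4%. Here both 4% libraries were below both 20% libraries. The region 3738 bp past Sspo, over the pseudogene Zfp862-ps (chr6:48505001-48520200), had 4.12 and 4.72 at 20% and 3.85 and 4.25 at 4%, with overlapping groups.

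The microRNA regions differed in density and in the marks beside them. The Mir138-1 region was among the 10 densest of the set, with 5.06 and 4.59 normalised reads per kb at 20% and 5.54 and 4.69 at 4%. It was 27600 bp long, had H3K27ac and H3K4me1 in all 4 libraries of each mark, and had no H3K4me3 inside or within 5 kb in any library. The let-7 region, 15561 bp past the lncRNA gene A830005F24Rik, had 4.03 and 2.73 at 20% and 4.42 and 3.48 at 4%. Its groups overlapped, set 1 was above set 2 at both oxygen levels, and H3K4me3 and H3K27ac lay inside in all 4 libraries.

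The 2 regions with miR-30 genes differed in how their densities at 4% oxygen lay against those at 20%. The Mir30a and Mir30c-2 region had 1.96 and 1.93 at 20% and 1.85 and 2.13 at 4%, so the 4% libraries lay on either side of the 20% ones. The Mir30b and Mir30d region, 41800 bp long and 61478 bp from Zfat, had 2.69 and 2.57 at 20% and 3.71 and 3.14 at 4%. Both 4% libraries were higher here. H3K4me3 lay inside both regions in all 4 libraries. H3K27ac did not reach into the Mir30a and Mir30c-2 region in any library, and reached the Mir30b and Mir30d region only in the 4% libraries, over 286 and 310 bp. Within 5 kb, however, both regions had an H3K27ac peak in all 4 libraries. The remaining microRNA region, with Mir345, lay 524 bp before the 5′ end of Slc25a29, a mitochondrial amino acid carrier gene. Its densities were 1.46 and 1.63 at 20% and 1.62 and 1.68 at 4%, with overlapping groups.

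Several of the longest regions were far from any gene with the mark. The longest, 89400 bp on chromosome 18 (chr18:28354801-28444200), lay 115963 bp from the lncRNA gene 4930474G06Rik and held the pseudogene Gm6643. Its densities were 4.02 and 2.98 at 20% and 4.70 and 3.97 at 4%, so the groups overlapped although 4% was higher within each set. It held H3K4me3 in all 4 libraries and H3K27ac in none, though an H3K27ac peak lay within 5 kb in all 4. The region at chr8:63689201-63739400, 50200 bp long and 8811 bp past the lncRNA gene Gm35424, had 3.24 and 1.89 at 20% and 3.83 and 2.16 at 4%. Set 1 exceeded set 2 at both oxygen levels by more than 4% exceeded 20%. The region at chr5:7899201-7937800, 38600 bp long and 7433 bp past the lncRNA gene Gm30835, had 4.64 and 4.14 at 20% and 5.39 and 4.59 at 4%. Both these regions held H3K4me3 and H3K27ac in all 4 libraries, while their nearest genes had no H3K36me3.

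The 5 regions farthest from any gene were 585994 to 1173025 bp away. The farthest, 7400 bp at chr15:14480001-14487400, had 2.59 and 2.98 at 20% and 2.98 and 2.47 at 4%, with overlapping groups. The next, 998883 bp before the 5′ end of Cadm2, a neuronal adhesion gene, had 2.26 and 2.74 at 20% and 2.55 and 2.40 at 4%. Both held H3K4me3 and H3K27ac in all 4 libraries. In all, 8 regions lay more than 500 kb from a gene, and 6 of them had H3K4me3 in all 4 libraries.

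A group of short regions lay over pseudogenes. Of the 36 regions on chromosome 8, the chromosome with the most, 13 lay over the pseudogenes Gm6483, Gm21811, 6820431F20Rik, 2610005L07Rik or Gm21092, and 12 of these 13 had no H3K4me3 in any library. Among them was the region with the highest density, 600 bp at chr8:20145401-20146000 over Gm21811, with 7.76 and 7.13 at 20% and 7.42 and 6.97 at 4%. Reads from near-identical copies cannot be assigned with confidence to 1 copy, so the densities over pseudogenes are uncertain. A further dense region of 600 bp, 6811 bp from Chrac1, held no gene record and had 6.60 and 6.75 at 20% and 6.22 and 5.87 at 4%. With so few bases these values rest on short stretches.

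The other marks, which the choice of regions had not used, were then set beside H3K36me3. H3K4me3 lay inside 101 of the 233 regions in all 4 libraries and inside 114 in none. H3K27ac lay inside 83 in all 4 libraries and inside 117 in none. Both marks were present in all 4 of their libraries in 68 regions, both were absent in 100, and 9 had H3K27ac in all 4 without any H3K4me3, the Mir138-1 region among them. Counting peaks within 5 kb as well, 140 regions had H3K4me3 in all 4 libraries.

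H3K4me3 peaks lay mostly at or across the ends of the regions. A peak midpoint that fell outside its region was counted as lying at the end, here and in gene-overlapping regions. In the 101 regions with H3K4me3 in all 4 libraries, the midpoint of the peak with the highest score lay at or within 10% of the region's length from an end in 94.1% and 92.1% at 20% oxygen and in 92.1% and 88.1% at 4%. The same was so for 94.4% to 96.7% of gene-overlapping regions. Regions with H3K4me3 in all 4 libraries were longer (median 12000 bp) than regions with none (median 6500 bp). Their median densities were 2.47 and 2.58 at 20% and 2.82 and 2.60 at 4%, against 2.08, 2.08, 2.26 and 2.20 in the regions with none.

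All 3 marks of active chromatin overlapped a smaller share of these regions than of the longer gene-overlapping regions. H3K4me3 overlapped 47.6% and 46.8% of the regions at 20% oxygen and 45.9% and 48.5% at 4%, against 66.2% to 69.7% of the gene-overlapping regions, a mean difference of -20.8 ± 0.396 percentage points (SD, n = 4 libraries). H3K27ac overlapped 41.2%, 40.8%, 43.8% and 47.6% in the same order, against 59.9% to 66.5%. H3K4me1 overlapped 40.3%, 30.9%, 24.5% and 26.6%, against 57.9% to 76.8%. Each was lower in 4 of 4 libraries, and the exact paired permutation p was 0.125 (two-sided), the smallest that 4 libraries allow. Between regions of 2 to 10 kb only, 120 outside genes and 1750 over genes, the mean differences remained negative, at -18.8 points for H3K4me3, -12.3 for H3K27ac and -26.0 for H3K4me1. As a share of bases, H3K4me3 was higher outside genes in 4 of 4 libraries (4.76% to 6.20% against 3.37% to 4.61%). H3K27ac was mixed (4.08% to 5.76% against 3.85% to 5.86%) and H3K4me1 was lower (3.19% to 6.05% against 5.77% to 9.23%). At 2 to 10 kb the H3K4me3 share of bases was lower outside genes (6.95% to 9.46% against 9.48% to 13.8%).

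**Figure D3:**
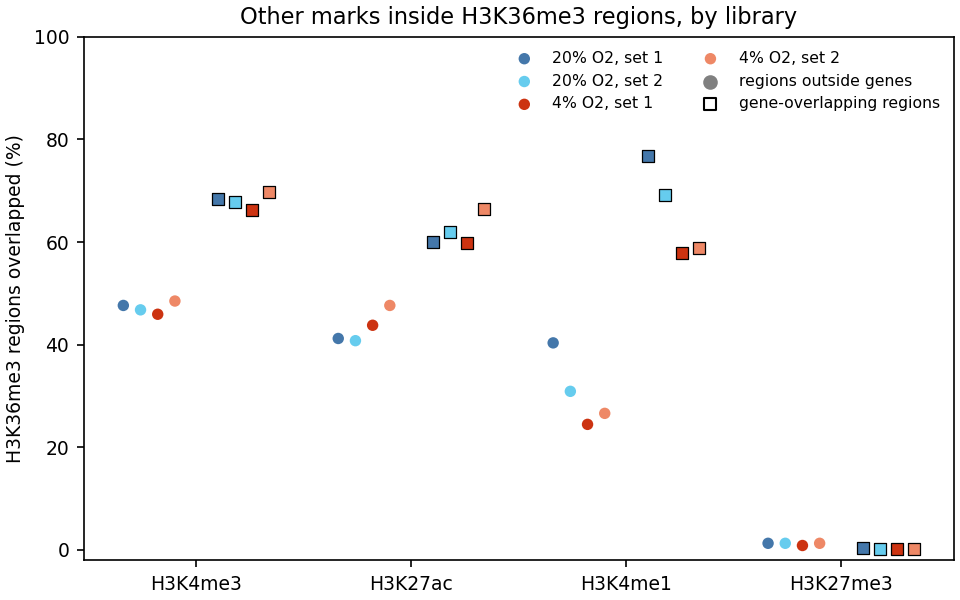
Percentage of H3K36me3 regions overlapped by a peak or island of each other mark (vertical axis), 1 point per library of that mark, circles for the 233 regions outside genes and outlined squares for the 9930 gene-overlapping regions. The circles lie below the squares in every library for H3K4me3, H3K27ac and H3K4me1, and H3K27me3 is near 0 in both.

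H3K27me3 was rare. An island overlapped 1.29%, 1.29%, 0.858% and 1.29% of the regions outside genes, against 0.222% to 0.332% of gene-overlapping regions. This was higher in 4 of 4 libraries with an exact paired permutation p of 0.125, but rests on 3, 3, 2 and 3 regions. With islands within 5 kb counted the direction turned. The shares were then 4.29%, 4.72%, 6.01% and 7.30% outside genes, against 7.03%, 6.09%, 10.2% and 7.78% of gene-overlapping regions. Only 2 regions had H3K27me3 in all 4 libraries. One of them, chr4:57385201-57391000, lay 20908 bp before the lncRNA gene 1700042G15Rik. It held no H3K4me3 in any library. Its H3K36me3 densities were 1.56 and 2.15 at 20% and 1.85 and 1.75 at 4%, with overlapping groups.

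The marks were compared between oxygen levels next. H3K4me3 shares had the same mean at both, 47.2%. The H3K27ac share was higher at 4% by 4.72 points (2.58 in set 1 and 6.87 in set 2), but with peaks within 5 kb counted the difference was -0.215 points. In gene-overlapping regions the H3K27ac shares were 60.0% and 62.0% at 20% and 59.9% and 66.5% at 4%, with overlapping groups. The H3K4me1 share of the regions outside genes was lower at 4%, with a difference of -10.1 points (-15.9 in set 1 and -4.29 in set 2). The exact two-sided permutation p was 0.333 for H3K27ac and for H3K4me1, the smallest that 2 against 2 libraries can give, so the design cannot reach 0.05. The gene-overlapping regions had a lower H3K4me1 share at 4% too, with 57.9% and 58.8% against 76.8% and 69.2% at 20%. H3K27ac was present in both 4% libraries and neither 20% library in 3 regions, near Zfat, Chrac1 and Gm40044, which is 1.29% of the 233 against 1.4% of all 10163 regions under 100 kb. The reverse pattern occurred in 0 regions outside genes, against 0.708% of all. For the regions near Zfat and Chrac1, an H3K27ac peak lay within 5 kb in all 4 libraries. H3K4me1 was present in both 20% libraries only in 10 regions (4.29%), against 6.9% of all regions, and in both 4% libraries only in 0, against 0.118%. For H3K4me3 both patterns had 0 regions, against 0.187% and 0.138% of all, and so had H3K27me3, against 0.0394% and 0.0197%. These shares were near or below those of all regions.

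H3K36me3 density over all 233 regions was compared with that over genes. The median density was 2.26 and 2.24 at 20% oxygen and 2.52 and 2.37 at 4%, against 2.58, 2.62, 2.72 and 2.65 in gene-overlapping regions. It was lower outside genes in 4 of 4 libraries, by a mean of 0.293 ± 0.0748 (SD, n = 4 libraries, exact paired permutation p = 0.125). Among regions of 2 to 10 kb the mean difference was only 0.00223 ± 0.0584 (SD, n = 4 libraries, exact paired permutation p = 1). There the density was still lower outside genes in 3 of 4 libraries, and higher only in the 4% library of set 1. At these lengths the medians were 2.09, 2.13, 2.44 and 2.26 outside genes and 2.09, 2.19, 2.36 and 2.26 over genes.

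Between oxygen levels, the median density was 2.25 ± 0.0120 at 20% and 2.44 ± 0.105 at 4% (SD, n = 2 libraries each). Both 4% libraries were above both 20% libraries, with a difference of 0.193 (0.259 in set 1, 0.127 in set 2) and an exact permutation p of 0.333, the smallest possible. The regions outside genes took up 0.652% and 0.615% of all island reads at 20% and 0.712% and 0.684% at 4%, again without overlap (exact permutation p = 0.333). The median log2 ratio of 4% to 20% per region was 0.15 in set 1 and 0.09 in set 2, against 0.07 and 0.03 over all 10507 regions, in which 44.05% were higher at 4% in both sets. Among the regions outside genes, 127 (54.5%) were higher in both sets and 34 (14.6%) were lower in both, against 23.7% of all regions lower in both.

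**Figure D4:**
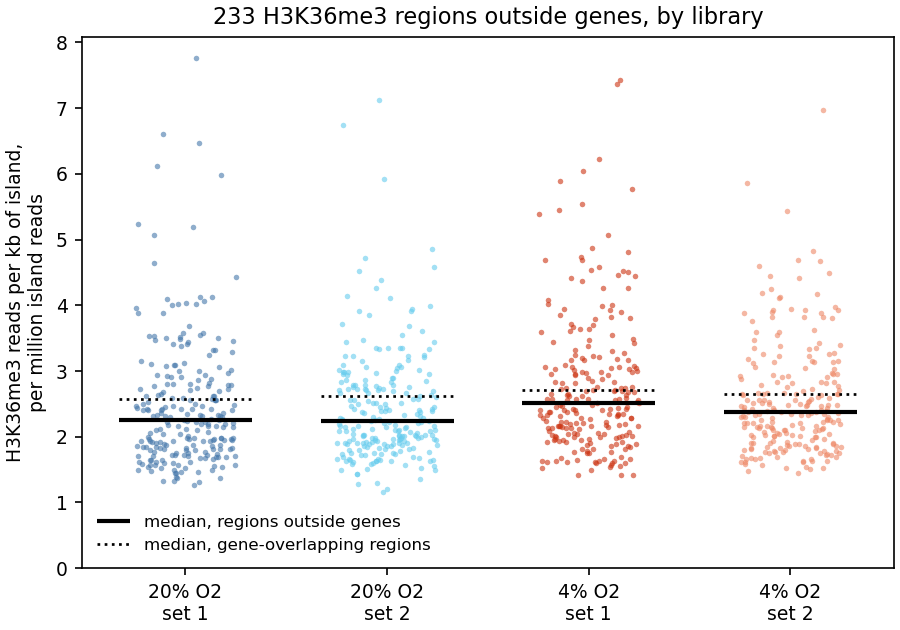
Normalised H3K36me3 read density (vertical axis) of each of the 233 regions outside genes, 1 point per region, in the 4 H3K36me3 libraries (horizontal axis). Solid lines are the medians, from 2.24 to 2.52, and dotted lines the medians of the gene-overlapping regions, from 2.58 to 2.72.

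No single region passed the test at this replication. In edgeR's quasi-likelihood test over all 10507 regions, 0 of the 233 regions outside genes had an adjusted p below 0.05 in either direction, against 0.0% of all regions, and the lowest adjusted p was 0.390. At an unadjusted p below 0.05, 24 were higher at 4% (10.3%) and 2 lower (0.858%), against 7.94% and 2.53% of all regions. Without the 20% library of set 2, 1 region passed as higher and 0 as lower, against 0.257% and 0.0286% of all, and leaving out the 4% one of set 2 gave 1 and 0, against 0.638% and 0.00952%. DESeq2 likewise gave 0 in either direction, against 0.019% and 0.0%. At an unadjusted p below 0.05 DESeq2 gave 11 of the 233 regions as higher and 1 as lower, against 338 and 308 of all 10507 regions. Both 4% libraries were above both 20% libraries in 79 regions (33.9%), against 28.1% of all, and below them in 18 (7.73%), against 13.7%.

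With the set as a block in the edgeR fit, which pairs the libraries that share an input number, 26 regions outside genes were higher at 4% (11.2%), against 9.75% of all regions, and 1 was lower (0.429%), against 3.17%. All of these calls were lost when the fit over all 10507 regions compared reads without the covered-length offset. The same blocked edgeR fit then called 0 of the 233 regions in either direction, against 0.0% of all regions. Its lowest adjusted p among the 233 was 0.216. At an unadjusted p below 0.05 that fit gave 26 of the 233 as higher and 8 as lower, against 882 and 872 of all 10507 regions. With the scaling centred on read density instead of read number and the same block, 19 were higher (8.15%), against 5.79%, and 3 were lower (1.29%), against 4.95%. Over the 43 regions outside genes that every library covered to at least 0.9 of their length, counted without the length offset and with the block, 12 were higher (27.9%), against 9.57% of all such regions, and 1 was lower (2.33%), against 9.32%. The 26 lay in 20 separate units and had log2 ratios of 0.23 to 0.74. Of these 26, 13 had H3K4me3 in all 4 libraries and 10 in none, and in 23 the oxygen groups did not overlap. Apart from the near-completely covered regions, the shares called higher were close to those of all regions, and the shares called lower were below them. With only 4 libraries the block leaves few degrees of freedom, so its p-values lean on the spread pooled over all regions. The block also does not separate oxygen from flow cell within set 1.

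The calls with the block included 6 of the 9 regions past Zfp330, which are neighbours and not independent. The 35200-bp region of that chain had a log2 ratio of 0.40 ± 0.0812 (SE), with an adjusted p of 8.24e-05 in edgeR with the block and 0.390 without it. With the block but no length offset, over all 10507 regions, its ratio was 0.41 with an adjusted p of 0.216. In the blocked fit without the offset over regions covered to at least 0.9, it was 0.38 with an adjusted p of 8.51e-05. A 3600-bp region of the chain (chr8:82654001-82657600) had densities of 2.71 and 2.90 at 20% and 4.37 and 4.19 at 4%. Its log2 ratio was 0.61 ± 0.139 (adjusted p = 0.000631 with the block, 0.390 without, 0.337 with the block but no length offset). In the fit over regions covered to at least 0.9 its adjusted p was 0.00298. The Mir30b and Mir30d region and the region before Phox2a were not covered enough to enter that fit. The Mir30b and Mir30d region had 0.37 ± 0.0851 (adjusted p = 0.000697 with the block, 0.396 without), and 0.28 with the block but no length offset (adjusted p = 0.382). For the region before Phox2a the log2 ratio was 0.49 ± 0.134, with an adjusted p of 0.00574 with the block and 0.390 without. With the block but no length offset it was 0.78 (adjusted p = 0.263).

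A region of 20400 bp at chr8:37369001-37389400, 128439 bp from Sgcz, a sarcoglycan gene, had densities of 3.31 and 2.79 at 20% and 4.45 and 3.82 at 4%. Both 4% libraries were higher, with a log2 ratio of 0.43 ± 0.0941 (edgeR adjusted p = 0.000325 with the block, 0.390 without). With the block but no length offset it was 0.28 (adjusted p = 0.316). The longest region, on chromosome 18, had 0.31 ± 0.0802 (adjusted p = 0.00337 with the block, 0.536 without). The region near Gm30395 (chr7:138032201-138036600) had 1.62 and 1.28 at 20% and 2.58 and 2.21 at 4%. Its log2 ratio of 0.71 (adjusted p = 0.00887 with the block, 0.390 without) turned to -0.49 without the length offset, with and without the block.

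The single region lower at 4% with the block was chr12:20890601-20906800, over the record 3110053B16Rik, where the nearest gene, the lncRNA gene 1700030C10Rik, was 74821 bp away. Its densities were 2.86 and 3.10 at 20% and 2.33 and 2.13 at 4%, a log2 ratio of -0.42 ± 0.109 (edgeR adjusted p = 0.00311 with the block, 0.390 without, 0.318 with the block but no length offset). Both 4% libraries were below both 20% libraries. The neighbouring region over the same record (chr12:20908001-20920200) had 2.62 and 2.87 at 20% and 2.22 and 2.41 at 4%, also without overlap, with an adjusted p of 0.121 with the block.

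**Figure D5:**
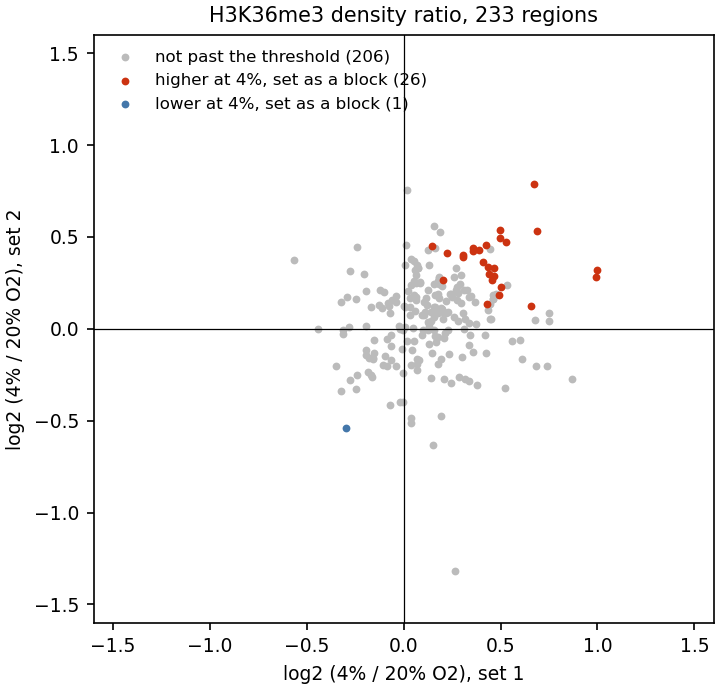
Log2 ratio of normalised H3K36me3 density at 4% to 20% oxygen in set 1 (horizontal axis) and set 2 (vertical axis), 1 point per region outside genes. Red points are the 26 regions higher at 4% and the blue point the 1 lower, at an adjusted p below 0.05 in edgeR with the set as a block; the red points lie in the upper right part, where both sets are above 0.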

How the data were processed

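The submitters' processing notes name BWA, Picard, SICER, MACS2 and the build mm10, with versions not given in the sources used here. Per the file headers, each list of islands or peaks comes from a single library. For H3K36me3 and H3K27me3 the deposited files list SICER islands per library with a column of whole numbers, read here as read counts per island. For H3K4me3, H3K27ac and H3K4me1 the deposited files list MACS2 peaks per library with a −log10 score, the authors' own value, used here only to rank peaks within a list. A peak or island overlapped a region from 1 bp on. Gene records, strands and sequences came from RefSeq (GRCm38.p6).

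The regions and gene lists were chosen with earlier results of these data known. The regions named are those ranking highest by covered length, density, p-value or distance, those with H3K27me3, microRNA or other small-RNA records, those with H3K4me3 by length, and those beside listed genes. Islands were merged where they touched. Island read counts were fitted with edgeR 4.0.16 (R 4.3.3) over 10507 regions with trimmed-mean scaling and the covered length as offset. The main fit had no block and used Benjamini-Hochberg adjustment, with DESeq2 1.42.0 as an alternative. The fits with and without the block were also run on simulated counts. Those counts were drawn without a set effect, so they cannot show how the block handles the deviations between sets. The sets were treated as pairs because each set has its own input number and no flow cell holds H3K36me3 libraries of both; their deviations at 20% and 4% oxygen correlated across regions (r = 0.497 over all regions, 0.357 over those outside genes, which share libraries). A region outside genes held at least 23 reads in every library, which limits the precision of the smallest ones. Single values used exact permutation tests over libraries. Some regions that the naming rule selects are not reported here.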

Additional observations from a re-analysis of the deposited data

How the results depend on the processing

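The count of regions outside genes higher at 4% oxygen was 0 in the edgeR fit without a block and 26 with the replicate block, 19 with the block and density-centred scaling, and 12 with the block over regions covered to at least 0.9 in every library. The counts lower at 4% were 0, 1, 3 and 1 in the same order. Over all 10507 regions, the block without the length offset gave 0 higher and 0 lower. Every call of the blocked fit was lost there. The 12 and 1 over the regions covered to at least 0.9 were also counted without that offset. Leaving out 1 library gave 0 to 1 regions higher, with 1 when either set 2 library was left out. Without the length offset the region near Gm30395 turned to -0.49, and to -0.49 with the block too. The H3K27ac share difference turned to -0.215 points, and that of H3K27me3 to 2.15 points, when peaks within 5 kb counted. The density difference from gene-overlapping regions turned to 0.00223 at 2 to 10 kb, where 3 of 4 libraries were still lower outside genes. The cause of these changes was not tested. The H3K4me3 share difference, 0 with all libraries, ran from -1.29 to 1.29 points when 1 library was left out. The set of regions itself numbered 223 with islands up to 600 bp apart merged, 175 without any gene record, 181 with at least 50% covered in every library and 176 at 5 kb or more from a gene. The density-centred scaling, the block without the length offset and the use of 1 region per chain were chosen after seeing the data. Counts of reads limit short regions most.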
